A study of Homo sapiens with 24 samples.

Results

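ADA, the gene of adenosine deaminase (Entrez gene 100), was followed in MOLT4 cells, an established human line of T-cell acute lymphoblastic leukaemia. It is 1 gene of the 9822 in the deposited count table. ADA was chosen by its own deposited values in all 6 groups, so its levels and fold changes are a description and carry no test. Cells were exposed to SK-3-91, named a pan-kinase degrader in the labels, for 1 h, 4 h or 8 h, or to the solvent DMSO for the same times, and each of the 6 groups has 4 RNA-seq libraries. A degrader of this kind binds a kinase and brings it to a ubiquitin ligase, so that the kinase is broken down. The labels state no dose, and nothing in the labels says that replicates were separate cultures, so the p-values below measure only the spread between these libraries, which may be technical.

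Adenosine deaminase removes the amino group of adenosine and of deoxyadenosine, giving inosine and deoxyinosine. Immature T cells of the thymus are known for high levels of it, and inherited loss of the enzyme leaves deoxyadenosine and its triphosphate to build up and stops lymphocytes from developing. Drugs that block the enzyme, such as pentostatin, are used against lymphoid leukaemias. Its product is passed to purine nucleoside phosphorylase, while adenosine kinase and deoxycytidine kinase compete for its substrates.

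ADA lies on chromosome 20, on the minus strand. The stretch just before the transcript start is shown because the level of that transcript is what was measured. It comes from RefSeq on build GRCh38.p14, minus strand, chr20:44651700-44651949, and its last base is the one before the start. Capitals mark the matches to the GC box GGGCGG, a binding motif of SP1-type factors, in which neighbouring matches may overlap.
ADA, 250 bases before the start: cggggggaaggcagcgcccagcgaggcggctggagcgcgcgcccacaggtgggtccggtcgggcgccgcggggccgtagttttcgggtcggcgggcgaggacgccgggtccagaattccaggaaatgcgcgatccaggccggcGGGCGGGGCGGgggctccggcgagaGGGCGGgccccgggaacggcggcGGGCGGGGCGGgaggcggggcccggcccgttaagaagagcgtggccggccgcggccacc
The window holds 5 matches to GGGCGG, of which the farthest begins 107 bases and the nearest 54 bases before the start. Both strands were searched, as GGGCGG and CCGCCC. At least 1 match was found in 42.6% of 35116 windows of the same length and at least 5 in 4.15%. TATAAA, searched on both strands, has 0 matches here and was found in 10.7% of the windows. G and C make up 80.0% of the ADA window, and the median over all windows is 58.0%. Promoter activity was not measured, and the matches are a description.

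ADA was among the most abundant transcripts per unit length. Read counts were expressed as CPM (the count in a library brought to 1 M reads, M for mega) and scaled by TMM factors. CPM divided by the authors' gene width of 1772 bases gave 907 ± 17.4 CPM per kilobase after 1 h of SK-3-91, against 762 ± 40.1 in DMSO (SD, n = 4 each). ADA ranked 14 to 15 of 9822 genes on this scale in the SK-3-91 libraries at 1 h and 15 to 16 in DMSO. Its sequence overlaps no other annotated transcript over the length of a read: of 3037 words of 50 bases, the read length, in its 9 GENCODE transcripts, 0 occur in a transcript of another gene on either strand. All 20 markers of immature T cells that were listed were measured, beside 1 of 6 B-cell markers (CD79A, 10.1 CPM in SK-3-91 and 8.01 CPM in DMSO at 1 h), 0 of 6 myeloid and 0 of 6 erythroid markers. Measured means present among the 9822 genes, not abundant. At 1 h the T-cell markers ran from CD8B (5.52 CPM in SK-3-91 and 4.9 CPM in DMSO) to CD3E (1100 and 945 CPM).

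Counted reads per library ranged from 6.86 M to 14.6 M. They averaged 13.6 M, 10.8 M and 8.3 M in SK-3-91 at 1, 4 and 8 h, and 14.1 M, 14.4 M and 14.2 M in DMSO. The number of reads on ADA itself averaged 23447, 18348 and 6728 in SK-3-91 and 20811, 21030 and 23326 in DMSO. These are bulk libraries, in which fewer cells and less RNA per cell cannot be told apart, and all levels below are relative to the other genes of the same library.

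After 1 h ADA was slightly higher with SK-3-91. Its level was 1632, 1562, 1619 and 1616 CPM in the 4 SK-3-91 libraries, against 1378, 1436, 1274 and 1315 CPM in the 4 DMSO libraries. All SK-3-91 libraries were above all DMSO libraries, as they were for 22.8% of all genes at this time. The log2 fold change was 0.25 ± 0.04 (SE), a ratio of 1.19. The change was small, yet 9230 of the other genes had a lower fold change than ADA and 591 a higher one. Over the settings compared, other than those that leave out a replicate, the log2 fold change lay between 0.23 and 0.29.

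After 4 h the difference was wider on the TMM scale. ADA was at 1921, 1986, 1727 and 1974 CPM in SK-3-91, against 1305, 1301, 1338 and 1354 CPM in DMSO. The groups did not overlap, as was the case with SK-3-91 above DMSO for 39.6% of genes. The lowest of the SK-3-91 libraries, replicate 3, was still well above the highest DMSO library on the TMM scale. Without scaling factors these libraries were closer, at 1556 and 1487 CPM. With TMM the log2 fold change was 0.52 ± 0.04 (SE), a ratio of 1.44, and 7241 genes had a lower fold change while 2580 had a higher one. Its size depends on the scaling, since without scaling factors it was 0.22, with 1701 ± 103.0 CPM in SK-3-91 and 1457 ± 26.0 CPM in DMSO (SD, n = 4 each). Without factors the median over all genes moved to -0.35, against -0.05 with TMM. Measured from the median gene, ADA was 0.57 higher without factors and 0.58 higher with TMM. These 2 values must be close, because a factor shifts all genes of a library alike. On the authors' deposited log2 values ADA was 0.44 above the median gene.

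After 8 h ADA was lower with SK-3-91. Its level was 967, 1024, 1122 and 946 CPM in SK-3-91, against 1505, 1509, 1452 and 1580 CPM in DMSO. Every SK-3-91 library at 8 h was also below each of the 12 DMSO libraries of all times. At 8 h 45.1% of genes had SK-3-91 below DMSO without overlap. The log2 fold change was -0.58 ± 0.05 (SE), so that ADA was 1.49-fold lower; 3376 genes had a lower fold change and 6445 a higher one. Without scaling factors it was -1.01. From the median gene it was -0.47 on both scales, which must be close for the reason given at 4 h. On the deposited log2 values it was -0.68 from the median gene. The SK-3-91 library with the highest ADA level, replicate 3, also had the fewest counted reads of the series, and leaving out replicate 3 gave -0.65.

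**Figure D1:**
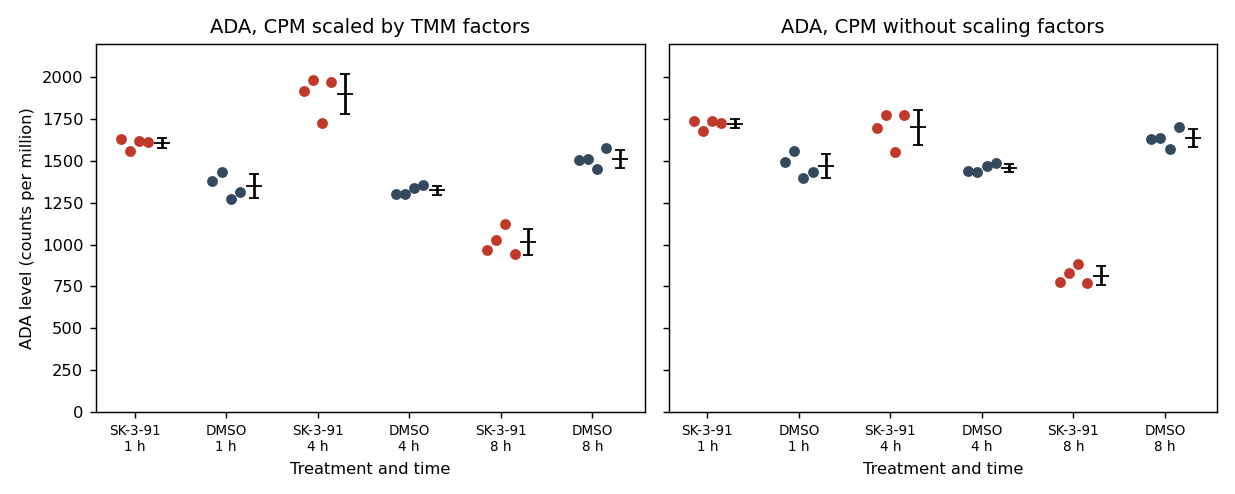
ADA level in CPM in each of the 24 libraries, with SK-3-91 left of DMSO at each time; points are libraries, and the bar beside them is the mean with its SD (n = 4). With TMM factors (left panel) SK-3-91 averages 1607, 1902 and 1015 CPM at 1, 4 and 8 h and DMSO 1351, 1324 and 1511 CPM; without factors (right panel) the SK-3-91 means at 1 h and 4 h are 1723 and 1701 CPM.

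In order of mean level, the groups ran as SK-3-91 at 4 h (1902 ± 120.0 CPM), SK-3-91 at 1 h (1607 ± 30.8), DMSO at 8 h (1511 ± 52.6), DMSO at 1 h (1351 ± 71.1), DMSO at 4 h (1324 ± 25.8) and SK-3-91 at 8 h (1015 ± 78.7; SD, n = 4 each). SK-3-91 at 1 h overlapped with DMSO at 8 h, and DMSO at 1 h overlapped with DMSO at 4 h. The other neighbours in this order did not overlap, although DMSO at 8 h and DMSO at 1 h were only 0.16 apart on the log2 scale of their means. The spread between libraries of a group, a coefficient of variation of 1.91% to 7.75%, was larger than counting error alone, which ranged from 0.639% to 1.28% per library.

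From 4 h to 8 h ADA differed more in SK-3-91 than in DMSO. In DMSO the log2 change of ADA was -0.03 ± 0.04 at 4 h against 1 h and 0.19 ± 0.04 at 8 h against 4 h (SE). In SK-3-91 it was 0.24 ± 0.04 at 4 h against 1 h and -0.91 ± 0.05 at 8 h against 4 h. The step from 1 h to 4 h in SK-3-91 depends on the scaling, at -0.02 without factors, whereas the step to 8 h was -1.06 without factors. The response to SK-3-91 at 8 h minus that at 4 h was -1.10 ± 0.06, and 419 genes had a lower value while 9402 had a higher one. Over all genes, edgeR called 454 (4.62%) higher at 4 h and lower at 8 h; 299 genes (3.04%) were in addition called higher at 1 h.

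**Figure D2:**
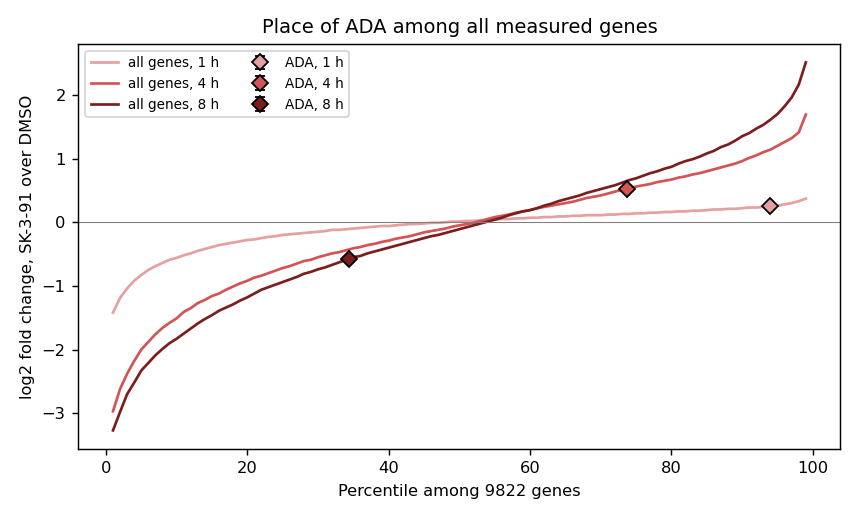
log2 fold change of SK-3-91 over DMSO against the percentile among all 9822 genes, as a line per time from the first to the last whole percentile; diamonds mark ADA with its SE. ADA stands above 94.0% of genes at 1 h, 73.7% at 4 h and 34.4% at 8 h, while the lines grow steeper with time.

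The place of ADA in the ranking per kilobase was lower with SK-3-91 at 4 h, although its CPM was higher there. It ranked 28 to 30 in the SK-3-91 libraries at 4 h, against 15 to 16 in DMSO. At 8 h it ranked 84 to 95 in SK-3-91, against 13 to 16 in DMSO. Among the 100 genes with the highest level per kilobase in DMSO at 1 h, where ADA stood at place 15, the median log2 fold change was 0.23, 1.04 and 1.11 at 1, 4 and 8 h. ADA was above 59 of those genes at 1 h, above 18 at 4 h and above 10 at 8 h. Its share of all counted reads was 0.172%, 0.17% and 0.0814% in SK-3-91 and 0.147%, 0.146% and 0.164% in DMSO.

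Ratios of ADA to another gene within a library need no scaling factor. Per unit length ADA had 46.9 ± 3.3 times the reads of PNP, the gene of purine nucleoside phosphorylase, in SK-3-91 at 4 h, and 18.3 ± 0.244 times in DMSO (SD, n = 4 each). At 8 h this ratio was 24.2 ± 1.14 in SK-3-91 and 22.3 ± 0.494 in DMSO. The groups came close without overlap there, the lowest SK-3-91 library at 23.4 and the highest DMSO library at 23.0. At 1 h the ratio was 25.2 ± 0.989 in SK-3-91 and 20.8 ± 0.361 in DMSO. The groups did not overlap at 1 h or 4 h either. ADA over the next enzyme of the route was thus higher with SK-3-91 at all 3 times, by most at 4 h.

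The ratio to ADK, the gene of adenosine kinase, which turns adenosine back into AMP, was lower with SK-3-91 at 8 h. ADA had 19.9 ± 1.53 times the reads of ADK per unit length in SK-3-91 at 8 h, against 33.5 ± 2.67 in DMSO. It was 27.0 ± 0.688 and 30.6 ± 1.67 at 4 h in SK-3-91 and DMSO, and 32.5 ± 0.552 and 30.0 ± 1.08 at 1 h. DCK encodes deoxycytidine kinase, which also phosphorylates deoxyadenosine. ADA over DCK was 5.87 ± 0.78 in SK-3-91 at 8 h, against 15.4 ± 1.84 in DMSO, after 15.6 ± 0.557 and 12.5 ± 0.849 at 4 h and 18.2 ± 0.802 and 14.6 ± 0.457 at 1 h. Neither ratio overlapped between the groups at 1, 4 or 8 h. With SK-3-91, ADA over ADK was higher at 1 h only, and ADA over DCK at 1 h and 4 h. How often ratios to other genes separate was not counted.

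**Figure D3:**
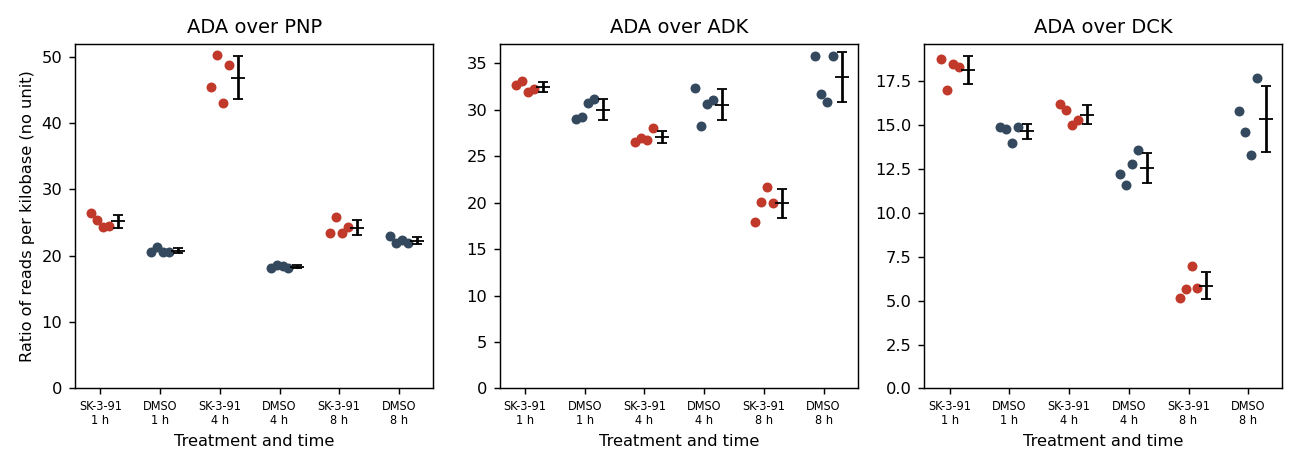
Reads of ADA per kilobase divided by those of PNP, ADK and DCK in the same library (no unit), with SK-3-91 left of DMSO at each time; points are libraries and bars the mean with its SD (n = 4). ADA over PNP peaks in SK-3-91 at 4 h (46.9), and ADA over ADK and over DCK are lowest in SK-3-91 at 8 h (19.9 and 5.87).

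The other enzymes of the pathway were tested with edgeR's quasi-likelihood test over all genes (Benjamini-Hochberg adjusted p under 0.05). Of 45 measured purine and adenosine genes in 5 lists, 28 rose and 4 fell at 1 h (20 and 4 without scaling factors), when 24.9% of all genes rose and 29.4% fell. ADA had a higher fold change than 42 of the 45, and than 94.0% of all genes. At 4 h 28 rose and 12 fell (16 and 19 without scaling factors), when 42.0% of all genes rose and 45.9% fell, and ADA was above 30 of them. At 8 h 19 rose and 24 fell (13 and 30 without factors), when 41.3% of all genes rose and 48.1% fell, and ADA was above 18 of the 45. Among all genes ADA was above 73.7% at 4 h and above 34.4% at 8 h. The median log2 fold changes of the 45 genes were 0.14, 0.21 and -0.28 at 1, 4 and 8 h, beside 0.01, -0.05 and -0.11 for all genes. The shares of all genes that rose or fell hold for TMM factors only. Without factors they were not counted by direction, so the counts in brackets have no share beside them. The median of all genes was then -0.01, -0.35 and -0.54 at 1, 4 and 8 h.

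Relatives of ADA had other courses. Values of single genes below are log2 fold changes of SK-3-91 over DMSO. Without scaling factors the median of all genes was -0.01, -0.35 and -0.54 at 1, 4 and 8 h, so values at 4 h and 8 h are lower on that scale. Of the 4 measured genes of the adenosine and AMP deaminase family, ADA2, which encodes a secreted adenosine deaminase, was at 0.20, 0.67 and 0.44 at 1, 4 and 8 h (edgeR adjusted p = 5e-04, 5.3e-16 and 5.7e-10). At 8 h the higher level of ADA2 was not found without scaling factors (0.00, edgeR adjusted p = 0.94) or on the deposited log2 values (0.01, limma adjusted p = 0.89). Per kilobase ADA2 was at 16.3 CPM in SK-3-91 at 8 h and 12.0 in DMSO, beside 573 and 853 for ADA. The AMP deaminase gene AMPD3 fell (-0.74 at 4 h and -1.80 at 8 h), and AMPD2 rose by 0.71 at 8 h. ADAL, a relative that acts on methylated AMP, was at 0.18, 0.04 and -0.06 at 1, 4 and 8 h (edgeR adjusted p = 0.033, 0.67 and 0.51). Its calls depend on the scaling: without factors ADAL was at 0.16, -0.26 and -0.49 (edgeR adjusted p = 0.062, 0.0021 and 1.5e-06), and with upper-quartile factors it was at -0.23 at 8 h (edgeR adjusted p = 0.015). Leaving out replicate 2, 3 or 4 also ended the call of ADAL at 1 h (0.17, 0.16 and 0.13). RNA adenosine deaminases, which edit adenosine within RNA, had a lower fold change than ADA at 4 h in all 4 measured members, as did 73.7% of all genes. At 8 h, when 34.4% of all genes were below ADA, all 4 were above it. Of these 4, 1 rose and 0 fell at 1 h, and 2 rose and 1 fell at 4 h and at 8 h (0 and 3 at 4 h, and 1 and 2 at 8 h, without scaling factors). Of all genes, with TMM factors, 24.9% rose and 29.4% fell at 1 h, 42.0% and 45.9% at 4 h, and 41.3% and 48.1% at 8 h.

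Of 13 salvage and supply genes, 7 rose and 0 fell at 1 h, 10 rose and 2 fell at 4 h (5 and 4 without scaling factors), and 7 rose and 6 fell at 8 h (5 and 7 without factors). The shares of all genes that rose and fell, with TMM factors, were 24.9% and 29.4% at 1 h and 42.0% and 45.9% at 4 h. They were 41.3% and 48.1% at 8 h. The largest fall of the list at 8 h was that of NT5M (-1.46), whose sequence words were not compared. PNP fell, at -0.83 ± 0.05 at 4 h and -0.70 ± 0.05 at 8 h (SE; edgeR adjusted p = 7.1e-19 and 6.3e-16), when ADA itself was at 0.52 and -0.58. ADK was at 0.70 at 4 h and 0.17 at 8 h, where it was -0.26 without factors and 0.01 with upper-quartile factors (edgeR adjusted p = 8.8e-05 and 0.91). AHCY, whose enzyme releases adenosine from S-adenosylhomocysteine, rose by 0.94 and 0.64 at 4 and 8 h. The base salvage genes HPRT1 (1.11 and 1.00) and APRT (1.15 and 1.38) rose at both times. DCK rose by 0.81 at 8 h (edgeR adjusted p = 4.7e-18).

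Of 6 measured genes of adenosine transport and sensing, 1 rose and 1 fell at 1 h, 2 rose and 3 fell at 4 h (1 and 3 without scaling factors), and 1 rose and 5 fell at 8 h. Of all genes, with TMM factors, 24.9% rose and 29.4% fell at 1 h and 42.0% and 45.9% at 4 h. At 8 h 41.3% of all genes rose and 48.1% fell, so a fall was common. SLC29A1, the equilibrative nucleoside transporter of the plasma membrane, fell by 3.01 ± 0.06 (SE) at 8 h (edgeR adjusted p = 2.4e-34). SLC29A3, a lysosomal transporter, fell by 3.77 ± 0.22 (SE; edgeR adjusted p = 2.1e-19), and the adenosine receptor gene ADORA2B fell by 2.53 at that time. SLC29A3 was at 0.901 CPM in SK-3-91 and 12.4 in DMSO at 8 h, and ADORA2B at 1.44 and 8.46. The sizes of both falls thus rest on few reads. Of the SLC29A3 sequence words 12.0% occur in other genes. DPP4 encodes CD26, to which ADA binds at the cell surface, and rose by 0.74 and 0.69 at 4 and 8 h, with 11.2 CPM in SK-3-91 and 6.71 CPM in DMSO at 4 h.

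**Figure D4:**
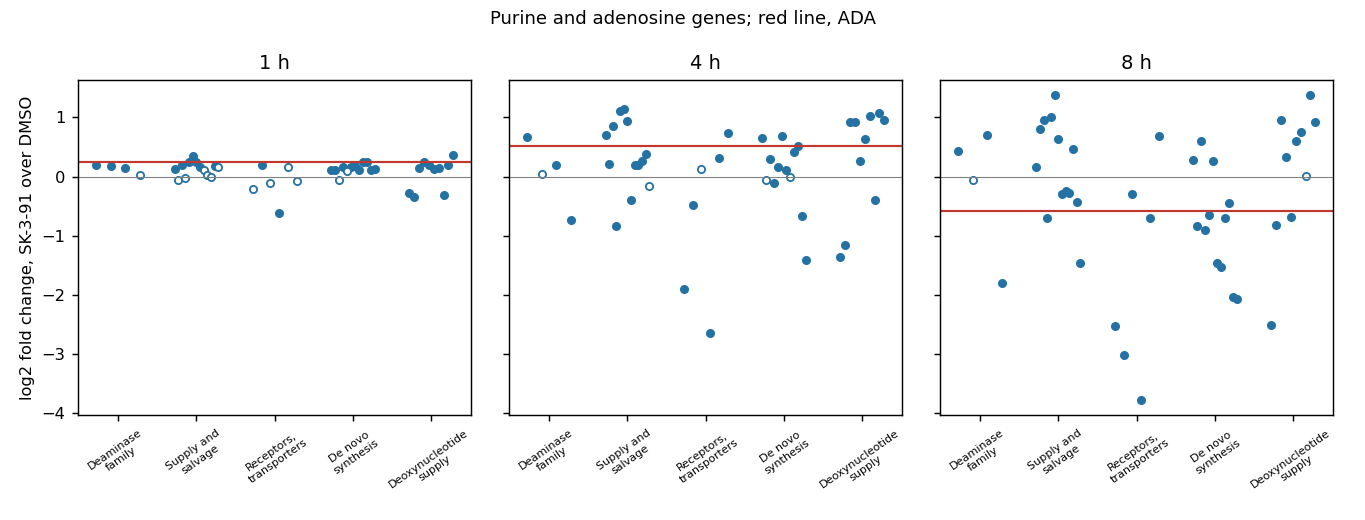
log2 fold change of SK-3-91 over DMSO for 45 purine and adenosine genes in 5 lists at 1, 4 and 8 h; filled points passed the edgeR test, open ones did not, and the red line is ADA (0.25, 0.52 and -0.58). At 1 h 42 genes lie below the line, and at 8 h 27 lie above it. Of all genes, 94.0% were below ADA at 1 h and 34.4% at 8 h.

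Of 12 measured de novo purine genes, 10 rose and 0 fell at 1 h (6 and 0 without scaling factors), 7 rose and 3 fell at 4 h (3 and 7 without scaling factors), and 3 rose and 9 fell at 8 h (1 and 11 without factors). With TMM factors, 24.9% of all genes rose and 29.4% fell at 1 h, 42.0% and 45.9% at 4 h, and 41.3% and 48.1% at 8 h. Without factors the median of all genes was -0.35 at 4 h and -0.54 at 8 h, so falls are more frequent on that scale. GMPS and ADSS2, which make GMP and adenylosuccinate, fell at 8 h (-2.04 and -2.07), further than ADA. Of 10 genes of deoxynucleotide supply, to be read against the same shares, 7 rose and 3 fell at 1 h and at 4 h, and 6 rose and 3 fell at 8 h (5 and 5 without factors). RRM2, a ribonucleotide reductase subunit gene, fell by 2.5 at 8 h, but 20.2% of its sequence words occur in other genes and it is uncertain.

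A T-cell enhancer in the first intron of ADA is known to bind MYB, ETS, LEF and TCF, RUNX and E-box factors. Of 8 measured genes, 7 of these classes and GATA3, another T-cell factor, 3 rose and 2 fell at 1 h (2 and 2 without scaling factors), 1 rose and 7 fell at 4 h, and 0 rose and 8 fell at 8 h (0 and 8 at 4 h without factors). Over all genes, with TMM factors, 24.9% rose and 29.4% fell at 1 h, 42.0% and 45.9% at 4 h, and 41.3% and 48.1% at 8 h. ADA had a higher fold change than all 8 at 4 h and than 4 of them at 8 h. Among all genes it was above 73.7% at 4 h and above 34.4% at 8 h. MYB was at -0.29, -2.18 and -1.95 at 1, 4 and 8 h, TCF7 at 0.25, -0.45 and -1.11, and ETS1 at -0.29 and -0.94 at 4 and 8 h. Of the 20 immature T-cell markers, 9 rose and 3 fell at 1 h, 11 rose and 6 fell at 4 h (8 and 10 without scaling factors), and 6 rose and 13 fell at 8 h (2 and 16 without factors), to be read against the same shares of all genes. DNTT, the terminal transferase gene of the same thymic stage, was at 0.99 at 4 h and at 0.26 at 8 h, or -0.17 without factors. CD2 and CD1D, of the 13 markers that fell at 8 h, were at -3.78 and -2.75, further down than ADA. CD7 and CD3E, of the 6 that rose, were at 1.25 and 1.15, so the markers did not move in 1 direction. With the degrader, CD2 and CD1D were at only 7.05 and 5.54 CPM at 8 h, and CD3E was at 2470 CPM. The sequence words of CD7 and CD3E were not compared.

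The profile of ADA over the 24 libraries was closest to those of MRPL28, ACTG1, STOML2, IMPDH2 and MTCH2. Likeness was the root mean square difference between log2 CPM values centred on each gene's mean, which was 0.054, 0.057, 0.063, 0.07 and 0.074 for these genes in that order, with a median of 0.5 over all other genes. Without scaling factors the same 5 genes were closest. That outcome is no check, because a factor shifts all genes of a library alike and drops out of the difference. By Pearson correlation 4 of them were, and HDHD5 (0.97) took the place of MTCH2 (0.967). MRPL28 encodes a mitochondrial ribosomal protein, ACTG1 gamma actin, STOML2 and MTCH2 mitochondrial membrane proteins, and IMPDH2 the enzyme that turns IMP towards GMP. These genes were chosen by their likeness, so their fold changes are a description: IMPDH2 was at 0.24, 0.52 and -0.44 at 1, 4 and 8 h, beside 0.25, 0.52 and -0.58 for ADA. The ratio of ADA to IMPDH2 per unit length was 4.34 ± 0.264 in SK-3-91 and 4.32 ± 0.0986 in DMSO at 4 h, and 3.96 ± 0.223 and 4.36 ± 0.152 at 8 h.

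**Figure D5:**
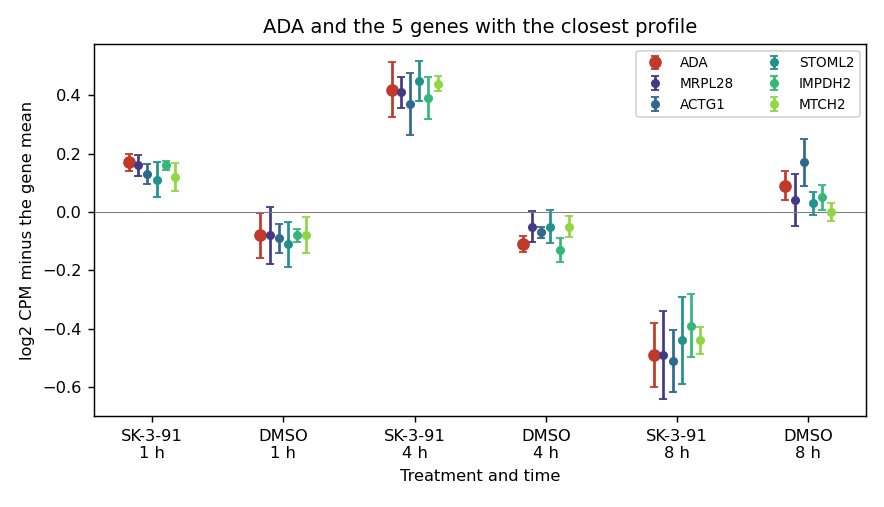
Mean log2 CPM minus the gene's mean over all 24 libraries, with its SD (n = 4), for ADA and the 5 genes closest to it, with SK-3-91 left of DMSO at each time. ADA is at 0.42 in SK-3-91 at 4 h and at -0.49 in SK-3-91 at 8 h, and the other 5 genes lie beside it in every group.

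The measured neighbours of ADA on chromosome 20 were on opposite sides of 0 at 8 h. PKIG encodes an inhibitor of protein kinase A, and its annotated span runs into the 3′ end of ADA on the opposite strand, with 0 of the ADA words in its transcripts. It rose by 0.24, 0.58 and 0.57 at 1, 4 and 8 h (edgeR adjusted p = 0.0022, 6.3e-10 and 8.9e-09), but at 8 h was at 0.14 without scaling factors (edgeR adjusted p = 0.083). LINC01260, on the other side, was lower at all 3 times (-0.28, -0.20 and -0.72), but 95.0% of its sequence words occur in another annotated gene and it is uncertain.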

How the data were processed

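RNA of 24 MOLT4 libraries was sequenced as single-end reads on a BGISEQ-500, per the labels' protocols. The authors deposited read counts, as whole numbers, for genes with Entrez IDs. Build hg19 and edgeR were named in the submitters' processing notes. How reads were aligned and counted, with or without strand, is not given in the sources used here. Gene width, which the authors deposited with the counts, served only for levels per kilobase. A second deposited table, named for RPKM, holds log2 values: 2 to the power of each is a straight line in the library's count (largest relative gap 3.9e-07%), with no gene length. The planned fit on log2(RPKM + 1) was therefore not run, and limma-trend 3.58.1 on those values as they stand replaced it, chosen after seeing the data.

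The counts of all 24 libraries entered 1 quasi-likelihood fit in edgeR 4.0.16 (R 4.3.3) with a mean per group and TMM factors; filterByExpr removed 0 genes. P-values were adjusted by Benjamini-Hochberg over all genes. Each SE was derived from the fold change and its F value. The fit was also run on simulated data in which a small share of genes changed, as many up as down. That run cannot check the scaling, because most genes were called here at 4 h and 8 h. Log2 CPM used a prior count of 2. ADA and the lists were chosen with earlier results of these data known. Named were ADA, its 5 closest genes, its nearest measured neighbours and members of the 3 adenosine lists. Up to 4 called members of each other list with the largest change at 8 h were named too. DNTT, MYB, PNP and RRM2 were also named. CD7 and CD3E were added as the immature T-cell markers with the largest rises at 8 h. Sequence words came from GENCODE release 29; a gene was given as uncertain where 20% or more were shared, a limit set after the shares were seen. Counting errors cover counting only.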

Additional observations from a re-analysis of the deposited data

Results flagged for a closer look

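ADA moved one way at 4 h and the other at 8 h in every library: the response at 8 h minus that at 4 h was -1.10 (-0.58 at 8 h, 0.52 at 4 h). This difference was not tested, because ADA was chosen by these values. The genes closest to ADA turned likewise by the way they were chosen, with differences of -1.13 for ACTG1, -1.0 for MRPL28, -0.97 for STOML2, -0.95 for IMPDH2 and -0.93 for MTCH2.

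Among the other named genes, those whose called responses ran in opposite directions at 2 successive times were ADSS2 (4 h minus 1 h -1.54, edgeR adjusted p = 2.3e-23), GMPS (-0.79, 4.1e-14), TCF7 (-0.70, 6.1e-14) and SLC29A1 (-0.67, 1.3e-11). All 4 were higher at 1 h and lower at 4 h, but without scaling factors GMPS was no longer called at 1 h (0.10, edgeR adjusted p = 0.058). Its call at 1 h was also lost without replicate 3 (0.11, edgeR adjusted p = 0.058) and without replicate 4 (0.11, edgeR adjusted p = 0.069). The same held on the deposited log2 values (0.09, limma adjusted p = 0.081).

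A single library stood apart from the other 3 of its group in 10 of the 186 sets of gene and group examined, and chance gives about 1 in 20. None of them was a set of ADA. In SK-3-91 at 4 h AHCY had a low library at 782 CPM, AMPD3 one at 9.9 CPM and ADSS2 one at 38.0 CPM, and PKIG had a high one at 29.1 CPM. AHCY had a low library at 675 CPM in SK-3-91 at 8 h, and IMPDH2 a high one at 423 CPM in SK-3-91 at 1 h. In DMSO the libraries that stood apart were at 6.31 CPM for ADORA2B and 9.54 CPM for DPP4 at 1 h, and at 137 CPM for APRT and 175 CPM for GMPS at 8 h.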

How the results depend on the processing

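The direction of the ADA response to SK-3-91 was the same at 1, 4 and 8 h under RLE, upper-quartile and no scaling factors, DESeq2 1.42.0, both filters, only the 8 libraries of each comparison, the replicate block, limma-trend on the deposited log2 values and each left-out replicate. Its size depends on the scaling. At 4 h it was 0.22 without scaling factors and 0.22 on the deposited values. At 8 h it was -0.74 with upper-quartile factors, -1.01 without factors and -1.0 on the deposited values. In SK-3-91, 4 h against 1 h was -0.02 without factors and -0.02 on the deposited values, and 8 h against 4 h was -1.06 on both. The response at 4 h minus that at 1 h was 0.00 (rounded from just below 0) without factors and -0.01 on the deposited values.

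Leaving out each replicate in turn gave 0.22 to 0.30 at 1 h, 0.49 to 0.57 at 4 h and -0.65 to -0.52 at 8 h. For DMSO it gave -0.06 to 0.01 (4 h against 1 h) and 0.18 to 0.21 (8 h against 4 h), and for SK-3-91 0.21 to 0.29 and -1.0 to -0.86. The difference in response gave 0.20 to 0.35 from 1 h to 4 h and -1.22 to -1.04 from 4 h to 8 h. Genes called numbered 4369 to 4895, 8360 to 8476 and 8567 to 8676 at 1, 4 and 8 h, beside 5337, 8632 and 8783 with all libraries; of the purine and adenosine genes 26 to 29, 37 to 40 and 40 to 43 were called, beside 32, 40 and 43.

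Replicate numbers are shared between groups, but in 0 of 12 pairs was the correlation of same-numbered libraries over 0.1 (-0.119 to 0.0219). With the replicate block ADA was at 0.25, 0.52 and -0.58, and 5339, 8627 and 8773 genes were called at 1, 4 and 8 h.

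Among 30 of the other named genes, 1132 of 1170 recomputed values kept the call, with its direction, or stayed without one. Of the rest, 22 lost the call, 6 gained it and 10 turned. Values that stayed without a call could differ in sign, as for ADAL at 4 h (0.04, and -0.02 with upper-quartile factors), and are not among those that turned. Those that turned did so without factors and on the deposited values: at 4 h ADAL (-0.26 and -0.17), AMPD2 (-0.10 and -0.09) and DCK (-0.09 and -0.09), and at 8 h ADK (-0.26 and -0.22) and DNTT (-0.17 and -0.17). Calls lost or gained at 8 h were those of ADA2 (0.00 and 0.01), ADAL (-0.49 and -0.29, and -0.23 with upper-quartile factors), ADK (0.01 with upper-quartile factors, 0.11 without replicate 1) and PKIG (0.14 without factors). At 1 h they were those of ADAL, ADK, AMPD2, ETS1 and GMPS. The cause was not tested. Depth limits ADA little, with a counting error of at most 1.28% per library.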
